A study of Mus musculus with 8 samples.

Results

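Immediate early response genes are genes whose transcription begins within minutes of a stimulus and needs no new protein. They are described here by name and level in mouse embryonic stem cells for 10 members: Fos, Fosb, Jun, Junb, Egr1, Egr2, Ier2, Ier3, Nr4a1 and Klf6. They were chosen by name, as 10 well-known genes of the class out of the 55291 gene symbols in each count table, and all 10 were found in every table. Of these, 8 passed the filter on low counts and were tested among 16371 genes, while Fosb and Egr2 had too few counts.

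Growth factor, stress and cAMP signals reach these genes through kinases of the ERK, p38 and PKA pathways, which act on serum response factor with its ternary complex partners and on CREB. Many of the products are transcription factors: Fos and Jun proteins pair into the dimer called AP-1, and the EGR, KLF and NR4A proteins bind DNA through zinc fingers. Their mRNAs are short lived, so that levels follow the recent signalling state of the culture and also the handling of cells before lysis.

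The RNA came from mouse embryonic stem cells labelled E14, in which either DHX35, a DEAH-box RNA helicase, or GPATCH1, a G-patch protein that partners it on the spliceosome, carried an FKBP12-type degron tag (genotypes DHX35-dTAG and GPATCH1-dTAG). dTAG-13, a small molecule that brings tagged protein to an E3 ubiquitin ligase, was given at 200 nM for 4 h, and DMSO, its solvent, served as the control. There were 4 groups of 2 libraries: DHX35-dTAG with DMSO, DHX35-dTAG with dTAG-13, GPATCH1-dTAG with DMSO and GPATCH1-dTAG with dTAG-13. Every group therefore carried a tag, and the 8 libraries include no untagged cells. The lines were made from picked colonies, of which several were kept, and the clone sequenced is not named. A difference between the lines therefore cannot be told apart from one between clones. The growth protocol lists LIF, the MEK inhibitor PD0325901 and the GSK3 inhibitor CHIR99021, although it names R1 cells rather than E14. MEK is the kinase that activates ERK.

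Total counts ran from 12014203 to 14994173 per library. Levels are given as CPM, the count of a gene scaled to a fixed library total, on library sizes adjusted by TMM, and 1 count stood for 0.0620 to 0.0884 CPM. The 10 genes together took 0.0172% to 0.0300% of the counts of a library, with 95% Wilson intervals no wider than 0.00190 percentage points. Such intervals cover counting error only, since reads copied by PCR are not independent molecules. The labels do not say whether replicates were separate cultures, so that each p-value measures only the spread between these libraries.

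All 10 markers of embryonic stem cells had counts in each of the 8 libraries, and they summed to 5605 to 6410 CPM with Tfcp2l1 the most abundant. The 8 fibroblast or feeder markers summed to 2.56 to 5.91 CPM, with Thy1 the most abundant and Postn and Lum at 0 in every library. The label of the cells was thus met by their markers. Primitive endoderm markers summed to 6.80 to 10.2 CPM with Dab2 the most abundant by the mean of 8 libraries though in none of the DHX35-dTAG ones, mesoderm markers to 31.6 to 41.2 CPM with Eomes the most abundant, and neural markers to 78.6 to 89.9 CPM, of which Tubb3 made up 71.0 to 78.7 CPM.

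The mRNAs of the tagged genes were read next. Gpatch1 mRNA stood at 23.2 to 25.6 CPM in the 4 DHX35-dTAG libraries and at 6.90 to 7.31 CPM in the 4 GPATCH1-dTAG libraries. Dhx35 mRNA stood at 72.3 to 84.8 CPM in the DHX35-dTAG libraries and at 58.1 to 64.9 CPM in the GPATCH1-dTAG libraries. Both mRNAs separated the lines without overlap, Gpatch1 lower and Dhx35 higher in the line where it is tagged. Without untagged cells no direction was set in advance, so that this separation is no check of the genotypes. In DMSO alone, 43.1% of all genes had groups of the lines that did not overlap. dTAG-13 acts on the protein, so that mRNA is no measure of its action.

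One library stood apart from the other 7. DHX35-dTAG DMSO replicate 1 had a mean correlation of log2 CPM with the other libraries of 0.976 across genes, against 0.988 to 0.990 for the rest. Small nuclear, nucleolar and related short RNAs took 0.366% of its counts, against 0.120% to 0.143% in the others. Mitochondrial mRNA took 0.272%, against 0.758% to 1.13%. The pair of genes with the highest counts, Gm23935 and CT010467.1, took between 1.27% and 20.9% of a library, and the widest gap between replicates was in GPATCH1-dTAG DMSO, at 4.23% and 20.9%, with 1.27% and 2.02% in the treated pair of that line. In the DHX35-dTAG line the share was 3.15% and 1.54% in DMSO and 11.98% and 20.2% with dTAG-13, so that the comparison of treatments coincides with a difference in this share in both lines, in opposite directions. The Wilson intervals of these shares are at most 0.0436 percentage points wide. Changes of the 8 tested genes in the DHX35-dTAG line and between the lines, are also given below without this library.

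Compared per kilobase of exonic length, the 10 genes spanned a wide range of levels. Ier2, a short nuclear protein of the serum response, was highest, with a mean of 74.3 CPM per kb (SD 18.7, n = 8 libraries), and the orphan nuclear receptor gene Nr4a1 followed at 15.9 (SD 1.55). Junb stood at 9.94 CPM per kb (SD 1.30), Klf6 at 4.15 (SD 0.256), Ier3 at 2.77 (SD 0.375) and Fos at 1.30 (SD 0.308). Jun at 0.567 CPM per kb (SD 0.108), Egr1 at 0.238 (SD 0.0593), Fosb at 0.0426 (SD 0.0149) and Egr2 at 0.00553 (SD 0.0104) were the lowest. The median of 12776 tested protein-coding genes was 5.22 CPM per kb, so that Ier2, Nr4a1 and Junb lay above it and the other 7 genes below it. In this order each gene's range over the 8 libraries lay clear of its neighbour's, except that those of Fosb and Egr2 overlapped. The genes best known as markers of acute stimulation, Fos, Fosb, Egr1 and Egr2, thus held places in the lower part of the order.

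**Figure D1:**
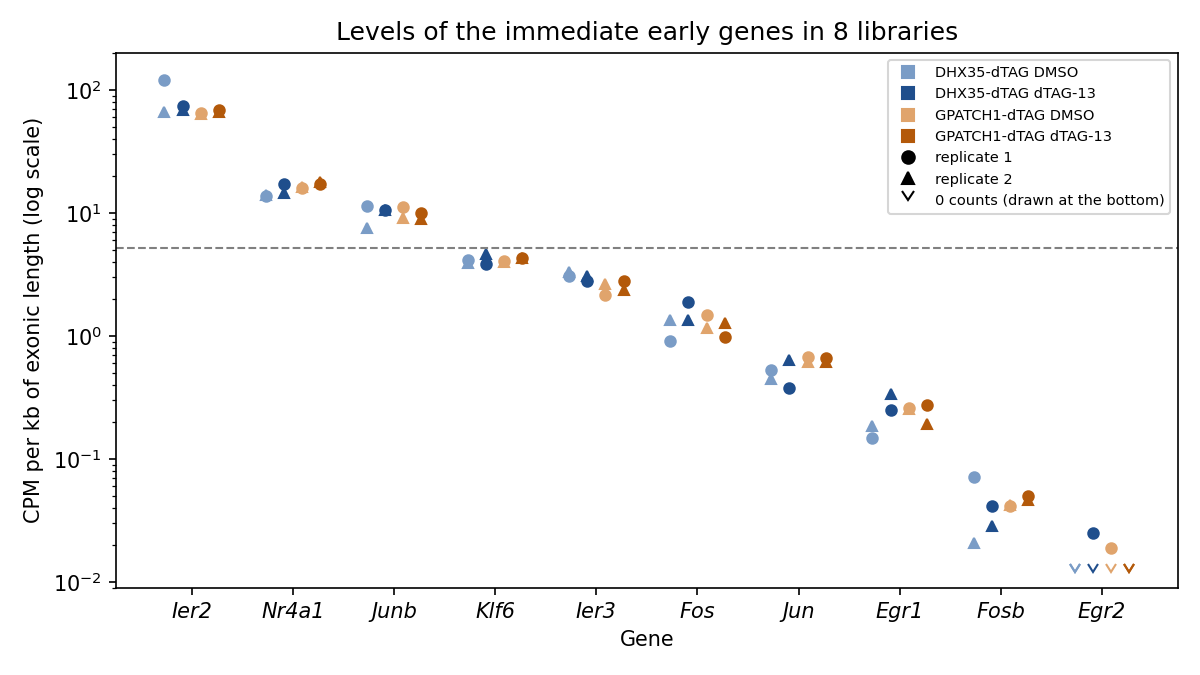
Level of each immediate early gene in CPM per kilobase of exonic length (log axis) in each of 8 libraries; colour gives the group, circles replicate 1 and triangles replicate 2, open marks at the bottom stand for 0 counts, and the dashed line is the median of tested protein-coding genes, 5.22 CPM per kb. Ier2, Nr4a1 and Junb lie above the line, and Fosb and Egr2 lie lowest.

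The first question was whether 4 h of dTAG-13 moved these genes in the DHX35-dTAG line. In edgeR's quasi-likelihood test, 0 of 8 genes had an adjusted p under 0.05, as had 0% of all 16371 genes. At an unadjusted p under 0.05 the count was 0 of 8, beside 5.39% of all genes, and DESeq2 called 0 of the 8. The groups did not overlap for 4 of the 8, with Fos, Egr1 and Nr4a1 higher and Ier3 lower in both treated libraries; 28.7% of all genes had groups that did not overlap in either direction. The median log2 fold change of the 8 was 0.12, beside -0.0077 for all genes, and 6 of 8 lay above 0, beside 48.5% of all genes. That median was 0.063 with at least 10 counts required in every library, which leaves out Egr1, and -0.0066 without DHX35-dTAG DMSO replicate 2, 0.052 without dTAG-13 replicate 2 and 0.18 without replicate 1 of either group.

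In the GPATCH1-dTAG line edgeR also gave 0 of 8 genes with an adjusted p under 0.05, beside 0% of all genes. The count was 0 of 8 at an unadjusted p under 0.05, beside 2.97% of all genes, and 0 by DESeq2. Groups did not overlap for 3 of 8, Ier2, Klf6 and Nr4a1, each higher with dTAG-13, beside 41.8% of all genes in either direction. The median of the 8 was 0.027, beside 0.0029 for all genes, and 4 of 8 lay above 0, beside 50.8%. It ran from -0.039 without GPATCH1-dTAG dTAG-13 replicate 1 to 0.091 without replicate 2 of that group.

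The direct test of whether the lines responded differently gave 0 of 8 genes in edgeR, beside 0% of all genes. At an unadjusted p under 0.05 it gave 0 of 8, beside 3.91%, and DESeq2 gave 0. With both lines pooled, 0 of 8 genes had an adjusted p under 0.05 in edgeR, beside 0% of all genes. Here 1 of 8, Nr4a1, had an unadjusted p under 0.05, beside 3.59% of all genes, DESeq2 called 0, and 0 of 8 had pooled groups that did not overlap, beside 2.25% of all genes. The pooled median was 0.056, beside -0.0061 for all genes, and 6 of 8 lay above 0, beside 48.1%. With 1 library left out that median was 0.017 to 0.11, the lowest without DHX35-dTAG dTAG-13 replicate 2 and the highest without GPATCH1-dTAG DMSO replicate 1, and 5 to 7 lay above 0.

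In DMSO the lines themselves were compared, and edgeR gave 0 of 8 genes with an adjusted p under 0.05, beside 0.0916% of all genes (15 genes). At an unadjusted p under 0.05 it was 1 of 8, Ier2, beside 12.9% of all genes, and DESeq2 called 0 of the 8. The DMSO groups did not overlap for 5 of 8: Jun, Egr1 and Nr4a1 were higher and Ier2 and Ier3 lower in both GPATCH1-dTAG libraries, beside 43.1% of all genes in either direction. The median of the 8 was 0.16, beside -0.0079 for all genes, and it ran from 0.025 without GPATCH1-dTAG DMSO replicate 1 to 0.23 without replicate 2. This comparison shares its DMSO libraries with both treatment comparisons, so that their values are not independent.

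Fos, the founding AP-1 subunit, stood at 2.14 and 3.15 CPM in the DHX35-dTAG DMSO libraries and at 4.45 and 3.18 CPM with dTAG-13. In the GPATCH1-dTAG line it stood at 3.49 and 2.74 CPM in DMSO and at 2.29 and 3.03 CPM with dTAG-13. The treated DHX35-dTAG libraries were both above their controls though replicate 2 of each group nearly met, while the GPATCH1-dTAG groups overlapped. The log2 fold change was 0.52 in the DHX35-dTAG line (SE 0.29, 95% interval -0.13 to 1.17, adjusted p in edgeR = 0.715) and -0.25 in the GPATCH1-dTAG line (SE 0.29, interval -0.91 to 0.41, adjusted p = 1.00). The difference between these responses was -0.77 (SE 0.41, adjusted p in edgeR = 0.862), on 29 to 54 counts per library. With each library left out in turn, the change in the DHX35-dTAG line ran from 0.26 to 0.84. It was 0.28 without DHX35-dTAG DMSO replicate 1, and 0.84 without replicate 2, where the adjusted p in edgeR was 0.0546 and 28.8% of all genes were called. For GPATCH1-dTAG cells the change ran from -0.45 without dTAG-13 replicate 2 to -0.050 without DMSO replicate 1.

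Jun, the AP-1 subunit that can also pair with itself, stood at 1.70 and 1.41 CPM in DHX35-dTAG DMSO and at 1.20 and 2.03 CPM with dTAG-13. GPATCH1-dTAG libraries had 2.14 and 1.95 CPM in DMSO and 2.11 and 1.94 CPM with dTAG-13. Treated and control libraries overlapped in both lines, and the widest replicate gap of Jun was that of the treated DHX35-dTAG pair. Its log2 fold change was 0.054 in the DHX35-dTAG line (SE 0.32) and -0.014 in the GPATCH1-dTAG line (SE 0.29), on 14 to 34 counts per library. Both changed direction with a library left out. The former ran from -0.37 without DHX35-dTAG dTAG-13 replicate 2 to 0.39 without replicate 1 of that group. The latter ran from -0.079 without GPATCH1-dTAG DMSO replicate 2 to 0.061 without replicate 1 of that group. In DMSO Jun was higher in both GPATCH1-dTAG libraries, by 0.40 on the log2 scale (SE 0.30, adjusted p in edgeR = 0.547).

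Junb, an AP-1 subunit that activates less strongly than Jun on many promoters, stood at 26.3 and 17.5 CPM in DHX35-dTAG DMSO and at 24.5 and 24.3 CPM with dTAG-13. Values in the GPATCH1-dTAG line were 25.8 and 20.9 CPM in DMSO and 23.0 and 20.7 CPM with dTAG-13. Treated libraries lay between or beside their controls in both lines. The log2 fold changes were 0.16 (SE 0.19) and -0.096 (SE 0.19), and the 95% interval in the DHX35-dTAG line ran from -0.26 to 0.59. Without DHX35-dTAG DMSO replicate 1 its change in that line was 0.48, and without replicate 2 it was -0.098.

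Fosb, the remaining AP-1 subunit among the 10, had 2 to 6 counts per library, or 0.129 to 0.443 CPM. It did not pass the filter. In the fit with no filter its log2 fold change was -0.33 in the DHX35-dTAG line (SE 0.93) and 0.20 in the GPATCH1-dTAG line (SE 0.85). Each had an adjusted p of 1 in edgeR, and standard errors of this size limit what difference between groups could be seen.

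Egr1, a zinc finger factor induced through serum response factor, stood at 0.665 and 0.836 CPM in DHX35-dTAG DMSO and at 1.11 and 1.503 CPM with dTAG-13. The GPATCH1-dTAG libraries stood at 1.16 and 1.15 CPM in DMSO and at 1.24 and 0.864 CPM with dTAG-13. Among the 8 tested genes it had the largest fitted change with dTAG-13 in the DHX35-dTAG line, where both treated libraries lay above both controls. That log2 fold change was 0.78 (SE 0.36, 95% interval -0.039 to 1.61, adjusted p in edgeR = 0.715), and it rested on 9 to 17 counts per library. In the GPATCH1-dTAG line the change was -0.13 (SE 0.34), and the difference between the responses was -0.91 (SE 0.50, adjusted p in edgeR = 0.862). The change in the GPATCH1-dTAG line was -0.42 without GPATCH1-dTAG dTAG-13 replicate 1 and 0.097 without replicate 2 of that group. The DHX35-dTAG controls were also the lowest of the 4 groups: in DMSO Egr1 was 0.61 higher on the log2 scale in the GPATCH1-dTAG line (SE 0.36, adjusted p in edgeR = 0.460).

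Egr2, the related factor known from hindbrain and Schwann cell development, had 1 count in each of 2 libraries, DHX35-dTAG dTAG-13 replicate 1 and GPATCH1-dTAG DMSO replicate 1, and 0 counts in the other 6. A count of 0 allows up to 0.186 to 0.265 CPM in a library, taken as 3 counts.

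Nr4a1, the orphan nuclear receptor also known as Nur77, stood at 48.0 and 49.6 CPM in DHX35-dTAG DMSO and at 60.0 and 51.2 CPM with dTAG-13. For GPATCH1-dTAG cells the values were 56.1 and 57.4 CPM in DMSO and 60.7 and 62.3 CPM with dTAG-13. It was the 1 gene of the 8 with treated libraries above the controls in both lines. The share of all genes that did so in both lines was not counted. Groups did not overlap in either direction for 28.7% of all genes in the DHX35-dTAG line and 41.8% in the GPATCH1-dTAG line. Replicates of Nr4a1 lay close together in every group but the treated DHX35-dTAG pair. The log2 fold change was 0.19 in the DHX35-dTAG line (SE 0.099, 95% interval -0.034 to 0.41, adjusted p in edgeR = 0.715) and 0.12 in the GPATCH1-dTAG line (SE 0.098, interval -0.11 to 0.34, adjusted p = 1.00). Over both lines it was 0.15 (SE 0.066, interval 0.0046 to 0.30), with an adjusted p of 0.963 in edgeR. The upper bound of that interval is a 1.23-fold higher level. Without DHX35-dTAG dTAG-13 replicate 1 the change in the DHX35-dTAG line was 0.070 and that over both lines 0.096, and without replicate 2 of that group they were 0.30 and 0.19. The GPATCH1-dTAG controls lay above the DHX35-dTAG controls by 0.22 on the log2 scale (SE 0.099, adjusted p in edgeR = 0.389). Without DHX35-dTAG DMSO replicate 2 this line difference was 0.25, with an adjusted p of 0.0489 in edgeR, in a fit that called 5887 of 17175 genes, or 34.3%. Without replicate 1 it was 0.20, with an adjusted p of 0.500 in edgeR.

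Klf6, a Krüppel-like factor with roles in growth control and liver injury, stood at 18.1 and 17.4 CPM in DHX35-dTAG DMSO and at 16.8 and 20.4 CPM with dTAG-13. In the GPATCH1-dTAG line it stood at 17.8 and 17.7 CPM in DMSO and at 18.8 and 18.9 CPM with dTAG-13. The GPATCH1-dTAG groups were separate but close, and the DHX35-dTAG groups overlapped. The log2 fold changes were 0.072 (SE 0.12) in the DHX35-dTAG line and 0.088 (SE 0.12) in the GPATCH1-dTAG line. Their 95% intervals ran from -0.20 to 0.35 and from -0.19 to 0.36. The change in the DHX35-dTAG line was -0.069 without DHX35-dTAG dTAG-13 replicate 2 and 0.20 without replicate 1 of that group. Between the lines in DMSO the fitted difference was 0.0015 (SE 0.12), the smallest of the 8 genes.

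Ier2 stood at 182 and 101 CPM in DHX35-dTAG DMSO and at 113 and 106 CPM with dTAG-13. GPATCH1-dTAG libraries had 99.0 and 97.5 CPM in DMSO and 105 and 101 CPM with dTAG-13. DHX35-dTAG DMSO replicate 1 was thus far above the other 7 libraries, which ranged from 97.5 to 113 CPM. The log2 fold change with dTAG-13 was -0.37 in the DHX35-dTAG line (SE 0.22, 95% interval -0.86 to 0.12, adjusted p in edgeR = 0.715) and 0.068 in the GPATCH1-dTAG line (SE 0.22). Without that library the change in the DHX35-dTAG line was 0.11, with an adjusted p of 0.991 in edgeR. With that library as the only control it was -0.73, with an adjusted p of 7.9e-07 in edgeR, and in that fit 4949 of 17175 genes were called, or 28.8%.

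The same library carried the difference of Ier2 between the lines. In DMSO Ier2 was lower in the GPATCH1-dTAG line by a log2 change of -0.53 (SE 0.22, 95% interval -1.02 to -0.040, adjusted p in edgeR = 0.365). Without DHX35-dTAG DMSO replicate 1 the difference was -0.043, with an adjusted p of 0.916 in edgeR. Without replicate 2 it was -0.88, with an adjusted p of 5.2e-08 in edgeR, where 5887 genes were called. With no filter on low counts it was -0.51, with an adjusted p of 0.0010 in edgeR, where 986 genes were called.

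Ier3, a stress-induced protein that modulates apoptosis and ERK signalling, stood at 3.47 and 3.73 CPM in DHX35-dTAG DMSO and at 3.16 and 3.45 CPM with dTAG-13. Values in the GPATCH1-dTAG line were 2.46 and 3.01 CPM in DMSO and 3.16 and 2.66 CPM with dTAG-13. Both treated DHX35-dTAG libraries lay below their controls by a narrow margin, and the GPATCH1-dTAG groups overlapped. The log2 fold changes were -0.12 (SE 0.22) and 0.11 (SE 0.22). In DMSO Ier3 was lower in the GPATCH1-dTAG line, with a log2 difference of -0.41 (SE 0.22, adjusted p in edgeR = 0.429). That difference was -0.26 without GPATCH1-dTAG DMSO replicate 1 and -0.54 without replicate 2. The change in the DHX35-dTAG line ran from -0.18 without dTAG-13 replicate 2 to -0.063 without DMSO replicate 2, and that in the GPATCH1-dTAG line from -0.041 without DMSO replicate 1 to 0.24 without replicate 2.

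**Figure D2:**
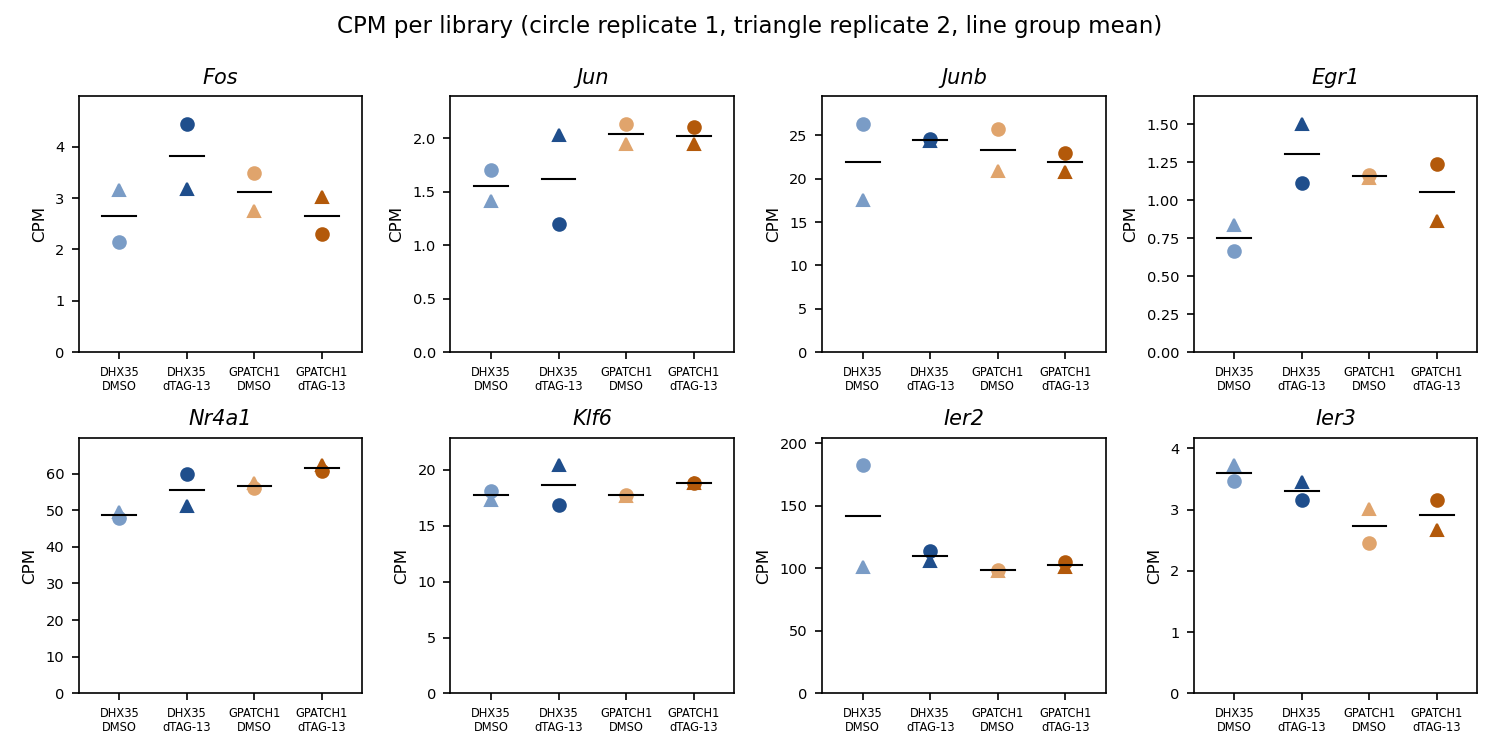
CPM of the 8 tested immediate early genes (vertical axes from 0, a scale of its own for each gene) in the 4 groups; circles are replicate 1, triangles replicate 2 and lines the mean of 2 libraries. Ier2 in DHX35-dTAG DMSO replicate 1, at 182 CPM, stands apart from 97.5 to 113 CPM in the other 7 libraries.

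**Figure D3:**
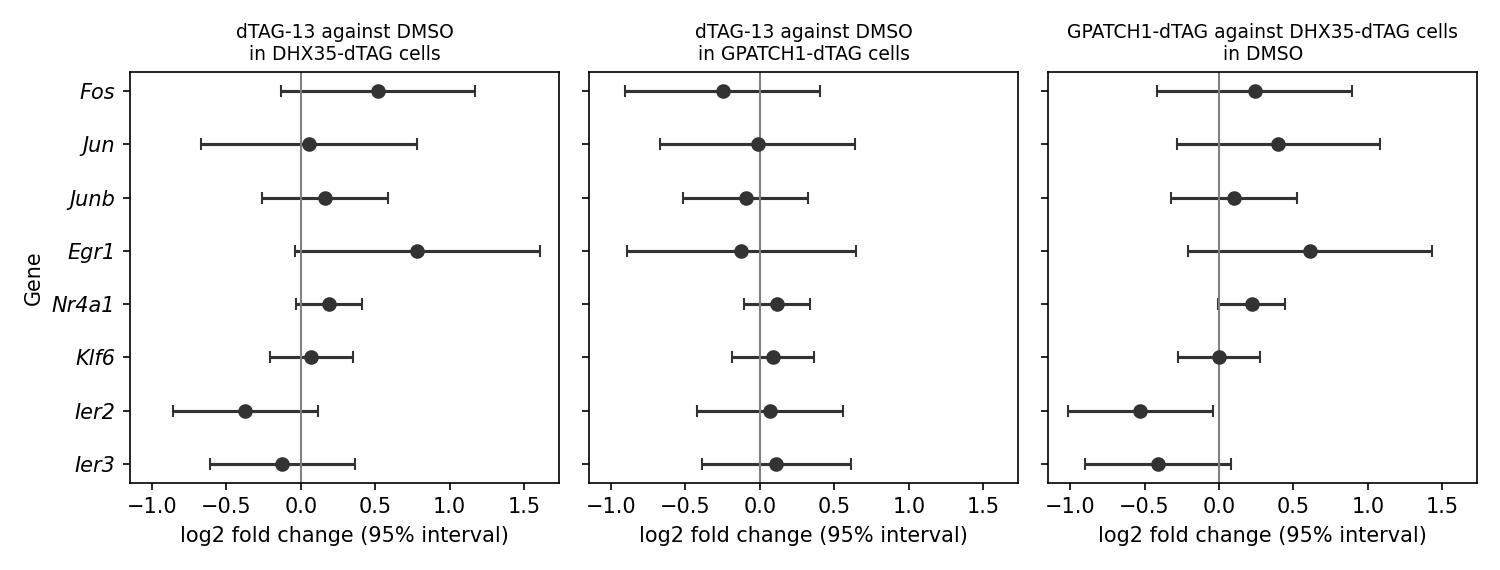
Fitted log2 fold change (horizontal axes) of the 8 tested genes in 3 comparisons, from edgeR with 8 libraries; points are estimates and bars 95% intervals without adjustment for the number of genes. Every interval includes 0 except that of Ier2 between the lines in DMSO, -1.02 to -0.040.

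Without DHX35-dTAG DMSO replicate 1, edgeR again gave 0 of 8 genes with an adjusted p under 0.05 in each of the 5 comparisons. In that fit the log2 fold changes with dTAG-13 in the DHX35-dTAG line were 0.28 for Fos, 0.19 for Jun, 0.48 for Junb, 0.64 for Egr1, 0.17 for Nr4a1, 0.10 for Klf6, 0.11 for Ier2 and -0.17 for Ier3. Between the lines in DMSO they were 0.0096 for Fos, 0.54 for Jun, 0.43 for Junb, 0.47 for Egr1, 0.20 for Nr4a1, 0.033 for Klf6, -0.043 for Ier2 and -0.47 for Ier3. Ier2 in the DHX35-dTAG line was the 1 value of these 16 that changed direction.

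The width of these intervals set what could be seen. Over the 8 genes the median half-width of the 95% interval was 0.49 on the log2 scale in both treatment comparisons, and standard errors in the DHX35-dTAG line ran from 0.099 for Nr4a1 to 0.36 for Egr1. An interval that includes 0 does not show that a gene was unmoved. In bulk RNA a change in a few cells and a smaller change in every cell cannot be told apart.

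Replicates of a group were compared next, since these genes also respond to handling. In DHX35-dTAG DMSO, 2 of 8 genes differed by more than 1.5-fold between replicates, Ier2 and Junb, beside 20.7% of all genes. Both were higher in replicate 1, so that 2 of 8 passed in this direction, beside 10.9% of all genes. Junb lay at the border of that fold. The count in either direction was 1 of 8 without TMM and 1 of 8 without the pair of genes with the highest counts, beside 21.0% and 20.8% of all genes. The log2 difference, replicate 2 minus replicate 1, was -0.85 for Ier2 and -0.59 for Junb, and it was -0.24 for Jun and 0.53 for Fos. Ier2 was above the other 7 libraries in replicate 1, whereas Junb was below the other 7 in replicate 2, at 17.5 CPM. In the treated DHX35-dTAG pair it was 1 of 8, Jun at 0.70, beside 8.53% of all genes. In GPATCH1-dTAG DMSO it was 0 of 8, beside 6.74%, and in GPATCH1-dTAG with dTAG-13 it was 0 of 8, beside 6.84%. These are differences of 1 library from 1 library, with no test. The genes did not move as a block. Between the DHX35-dTAG DMSO replicates Ier2, Junb, Jun and Klf6 were higher in replicate 1, and Fos, Egr1, Ier3 and Nr4a1 in replicate 2. Of these, Klf6 at -0.061, Nr4a1 at 0.047 and Ier3 at 0.098 lay near 0, so that their direction is not firm.

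These differences can be set beside gene structure in GENCODE M21 on GRCm38. Ier2 (chr8:84661331-84662852, minus strand) and Jun (chr4:95049034-95052222, minus strand) have a single exon, and Junb (chr8:84974484-84978718, minus strand) has transcripts of 1 and of 2 exons. Each transcript of Fos, Egr1, Ier3, Nr4a1 and Klf6 has at least 2 exons. In the DHX35-dTAG DMSO pair, 289 single-exon protein-coding genes had a median log2 difference of -0.24, replicate 2 minus replicate 1, against 0.015 for 12487 protein-coding genes with more exons. In the other 3 pairs the single-exon medians lay between -0.034 and -0.013. Whether exon number plays a part in the differences of Ier2, Jun and Junb in that pair was not tested.

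The exons of some of these genes are shared with others. Junb overlaps Prdx2 on the opposite strand, which stood at 106 to 121 CPM, and Jun overlaps the antisense gene Junos, which had 0 to 4 counts per library. The strand setting of the counting is not given in the sources used here, so that reads of such pairs may not be separated. No exon of another annotated gene overlaps those of the other 8 genes.

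Among the 8 tested genes, log2 CPM over the 8 libraries was loosely related. The highest Pearson correlation was 0.67, for Jun with Klf6, and the lowest was -0.66, for Ier3 with Nr4a1 (8 libraries, a description). Ier2 and Junb, the 2 genes past 1.5-fold between the DHX35-dTAG DMSO replicates, had 0.50. The mean log2 CPM of the 8 genes ranged from 3.11 to 3.35 over the libraries. Of 10559 other genes with a mean of at least 5 CPM, those closest to this mean were Mtmr14 (Pearson r = 0.925), 2810021J22Rik (0.917), Tspan32 (0.914), Rpl37 (0.893) and Pfdn1 (0.887), over 8 libraries. These genes were picked for their r, so that no p is given and nothing is said of shared control.

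A wider list of 44 other immediate early genes was read in the same way, and 40 were tested. In edgeR 0 of 40 had an adjusted p under 0.05 in any of the 5 comparisons. At an unadjusted p under 0.05 there were 3 with dTAG-13 in the DHX35-dTAG line, 1 in the GPATCH1-dTAG line, 8 between the lines, 2 for the difference of responses and 2 over both lines. The shares of all genes at that threshold were 5.39%, 2.97%, 12.9%, 3.91% and 3.59%. Their median log2 fold change was -0.015 in the DHX35-dTAG line and 0.043 in the GPATCH1-dTAG line, beside -0.0077 and 0.0029 for all genes. The former ran from -0.13 without DHX35-dTAG DMSO replicate 2 to 0.064 without replicate 1. Over both lines 20 of 40 lay above 0, and 18 to 27 with 1 library left out, beside 48.1% of all genes. The widest changes over both lines among those with at least 1 CPM were those of Mcl1, an anti-apoptotic BCL2 relative, at -0.28 (SE 0.094), of Gadd45g at -0.23 (SE 0.25) and of Btg2 at -0.20 (SE 0.11), each with an adjusted p of 0.963 in edgeR. Mcl1 stood at 491 CPM in DHX35-dTAG DMSO replicate 1 and at 283 to 355 CPM in the other 7 libraries. Over fits that each left out 1 library, Mcl1 ran from -0.36 to -0.17 and Gadd45g from -0.39 to 0.038, with the higher value of each without that library. Btg2 ran from -0.28 without DHX35-dTAG DMSO replicate 2 to -0.11 without GPATCH1-dTAG dTAG-13 replicate 2.

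Between the DHX35-dTAG DMSO replicates, 7 of those 40 genes differed by more than 1.5-fold, or 17.5%, beside 20.7% of all genes. Of the 40, 6 passed that fold with the higher value in replicate 1, beside 10.9% of all genes in this direction. Jund, a further AP-1 subunit, stood at 71.6 CPM in replicate 1 and at 41.4 to 54.3 CPM in the other 7 libraries. Sertad1, a cell cycle regulator, stood at 25.6 CPM and at 11.1 to 14.5 CPM in the others. Ier5, Gadd45g, Maff and Csrnp1 were the other 4, and Id2 was lower in replicate 1, at 2.66 CPM against 5.48 to 6.77 CPM. In each of the other 3 groups 2 of 40 passed that fold, beside 8.53%, 6.74% and 6.84% of all genes. Jund, Sertad1 and Ier5 are named here for their values rather than by the rule for named genes, as are Maff, Csrnp1 and Id2.

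Genes that ERK signalling induces and that feed back on it were a second list. Of these 11 of 12 were tested and 0 had an adjusted p under 0.05 in edgeR in any comparison. At an unadjusted p under 0.05 there were 2 in the DHX35-dTAG line, 1 in the GPATCH1-dTAG line, 6 between the lines, 0 for the difference of responses and 2 over both lines, beside 5.39%, 2.97%, 12.9%, 3.91% and 3.59% of all genes. Between the lines 5 of 11 lay above 0, beside 48.7% of all genes, with log2 differences from -0.51 to 0.28. That comparison uses the DHX35-dTAG DMSO pair, in which replicate 1 stood apart. Over both lines 10 of 11 lay above 0, and 8 to 10 with 1 library left out, beside 48.1% of all genes. The Sprouty gene Spry4, a feedback inhibitor of receptor kinases, stood at 56.8 and 58.2 CPM in DHX35-dTAG DMSO and at 79.2 and 64.8 CPM with dTAG-13. The GPATCH1-dTAG libraries stood at 58.0 and 56.4 CPM in DMSO and at 71.8 and 70.0 CPM with dTAG-13. All 4 treated libraries lay above all 4 controls, a separation in either direction that 2.25% of all genes had, with a log2 fold change over both lines of 0.32 (SE 0.070, 95% interval 0.16 to 0.47) and an adjusted p of 0.963 in edgeR. Spry2 had 0.19 (SE 0.076) and Etv5, an ETS factor, 0.14 (SE 0.078), with the same adjusted p in edgeR. With 1 library left out, Spry4 ran from 0.25 to 0.37, Spry2 from 0.11 to 0.24 and Etv5 from 0.058 to 0.19, the last 2 lowest without DHX35-dTAG DMSO replicate 1.

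Of the kinases, transcription factors and coactivators that act upstream, 33 of 33 were tested. At an adjusted p under 0.05 in edgeR there were 0 in any comparison, and at an unadjusted p under 0.05 there were 1, 0, 2, 1 and 0 in the DHX35-dTAG line, the GPATCH1-dTAG line, between the lines, for the difference of responses and over both lines. The shares of all genes were 5.39%, 2.97%, 12.9%, 3.91% and 3.59%. With lines pooled 19 of 33 lay above 0, and 15 to 22 with 1 library left out, beside 48.1% of all genes. Over both lines the acetyltransferase gene Crebbp had a log2 fold change of 0.18 (SE 0.16) and Mrtfb, a coactivator of serum response factor, had 0.14 (SE 0.15). Crebbp stood at 162 CPM in DHX35-dTAG DMSO replicate 1 and at 262 to 301 CPM in the other 7 libraries. Without that library the values were -0.0040 for Crebbp and -0.013 for Mrtfb, and without replicate 2 of the group they were 0.30 and 0.28. In that group's replicates 5 of 33 genes were past 1.5-fold, beside 20.7% of all genes. All 5 were lower in replicate 1, so that 5 of 33 passed in this direction, beside 9.71% of all genes.

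Heat shock and dissociation stress genes, which rise with heat and with enzymatic detachment of cells, were all tested, 17 of 17. In edgeR 0 had an adjusted p under 0.05 in any comparison, and at an unadjusted p under 0.05 there were 1, 2, 3, 2 and 1 in the same order of comparisons, beside 5.39%, 2.97%, 12.9%, 3.91% and 3.59% of all genes. Their median log2 fold change was 0.097 in the DHX35-dTAG line and 0.040 in the GPATCH1-dTAG line, beside -0.0077 and 0.0029 for all genes. The latter was 0.066 without GPATCH1-dTAG dTAG-13 replicate 1. With lines pooled 16 of 17 lay above 0, beside 48.1% of all genes, with a median of 0.050, beside -0.0061. With 1 library left out that count was 11 to 16, the lowest without DHX35-dTAG dTAG-13 replicate 2, where 47.1% of all genes lay above 0, and the median 0.041 to 0.089, the highest without GPATCH1-dTAG dTAG-13 replicate 2. Over both lines Hspa8 had 0.26 (SE 0.15), Ddit3 0.22 (SE 0.14) and Hsph1 0.16 (SE 0.051). With 1 library left out, Hspa8 ran from 0.096 without DHX35-dTAG DMSO replicate 1 to 0.41 without replicate 2, Ddit3 from 0.17 to 0.28 and Hsph1 from 0.14 to 0.17. Between the DHX35-dTAG DMSO replicates 1 of 17 was past 1.5-fold, beside 20.7% of all genes. It was Hspa8, at 1063 CPM in replicate 1 and 1828 to 2045 CPM in the other 7 libraries.

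Partners and repressors of AP-1 and EGR proteins were tested for 6 of 10 genes, and factors of mRNA decay through AU-rich elements for 7 of 7. In edgeR 0 of either list had an adjusted p under 0.05 in any comparison. At an unadjusted p under 0.05 there were 0 of 6 in every comparison, and 1, 0, 1, 0 and 1 of 7 in the same order, beside 5.39%, 2.97%, 12.9%, 3.91% and 3.59% of all genes. With lines pooled 2 of 6 and 6 of 7 lay above 0, and 1 to 2 and 5 to 6 with 1 library left out, beside 48.1% of all genes. Over both lines Mafg had -0.19 (SE 0.087), Nab1, a corepressor of EGR proteins, -0.10 (SE 0.16) and Bach1 -0.085 (SE 0.054). For the decay factors the values were 0.20 (SE 0.080) for Tob1, 0.16 (SE 0.095) for Elavl1, which stabilises AU-rich mRNA, and 0.11 (SE 0.087) for Cnot1, a scaffold of the deadenylase. Nab1 changed direction, from -0.22 without DHX35-dTAG DMSO replicate 1 to 0.016 without replicate 2. Mafg ran from -0.26 to -0.088, Elavl1 from 0.056 to 0.23 and Cnot1 from 0.023 to 0.19 over the same pair of fits, and their values closest to 0 came without replicate 1. Over all fits that left out 1 library, Bach1 ran from -0.097 to -0.059 and Tob1 from 0.16 to 0.27.

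The cell type markers were tested in the same fits, and 0 had an adjusted p under 0.05 in edgeR in any comparison. Between the lines an unadjusted p under 0.05 was met by 3 of 10 stem cell, 1 of 2 feeder, 2 of 5 primitive endoderm, 0 of 4 mesoderm and 1 of 3 neural markers, beside 12.9% of all genes. There was 1 stem cell marker in the DHX35-dTAG line, beside 5.39%, 1 primitive endoderm marker over both lines, beside 3.59%, and 0 markers in the GPATCH1-dTAG line and for the difference of responses, beside 2.97% and 3.91%.

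Of the tested primitive endoderm markers 2 of 5 lay above 0 with lines pooled, and their median was -0.047 on the log2 scale; of all genes 48.1% lay above 0. With 1 library left out, 2 to 3 of 5 did. The higher pair were Gata6 at 0.65 (SE 0.24) and Pdgfra at 0.29 (SE 0.17), whose 4 treated libraries lay above the 4 controls, as 2.25% of all genes had groups apart in either direction. Gata6 stood at 0.836 to 1.18 CPM in the controls and 1.28 to 2.09 CPM with dTAG-13, and Pdgfra at 1.48 to 1.86 and 1.95 to 2.30 CPM, each with an adjusted p of 0.963 in edgeR. Gata4 had -0.047 (SE 0.23), Dab2 -0.061 (SE 0.23) and Sox7 -0.30 (SE 0.23). Gata4 and Dab2 are named to complete the list rather than by the rule for named genes.

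Of the other markers over both lines, 7 of 10 stem cell, 0 of 2 feeder, 1 of 4 mesoderm and 3 of 3 neural markers lay above 0, and with 1 library left out 5 to 7, 0 to 1, 0 to 2 and 2 to 3. The stem cell markers Dppa5a, Esrrb and Nanog had -0.19 (SE 0.19), 0.084 (SE 0.058) and 0.078 (SE 0.075), and the feeder markers Thy1 and Col1a1 -0.27 (SE 0.22) and -0.15 (SE 0.30). The mesoderm genes T, Mixl1 and Kdr had -0.24 (SE 0.17), -0.21 (SE 0.24) and -0.037 (SE 0.085), and the neural genes Sox1, Pax6 and Tubb3 0.15 (SE 0.11), 0.12 (SE 0.24) and 0.045 (SE 0.056). Fits that each left out 1 library moved many of these values. Direction changed for Dppa5a, from -0.29 to 0.075, and Col1a1, from -0.34 to 0.11, which both lay above 0 without DHX35-dTAG DMSO replicate 1. It also changed for Kdr, from -0.073 to 0.019, above 0 without GPATCH1-dTAG DMSO replicate 1, and for Pax6, from -0.015 to 0.35, below 0 without either of these libraries. Nanog ran from 0.0060 to 0.13, Tubb3 from 0.018 to 0.076 and Thy1 from -0.39 to -0.099, each closest to 0 without DHX35-dTAG DMSO replicate 1. Sox7 ran from -0.43 to -0.14 and Mixl1 from -0.33 to -0.10, closest to 0 without GPATCH1-dTAG DMSO replicate 1. T ran from -0.31 to -0.15, closest to 0 without DHX35-dTAG DMSO replicate 2, and Esrrb from 0.045 to 0.11 and Sox1 from 0.089 to 0.22, closest to 0 without DHX35-dTAG dTAG-13 replicate 1. Gata6 ran from 0.51 to 0.78 and Pdgfra from 0.23 to 0.36.

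The starts of these genes are where serum response factor and CREB act, and RefSeq windows of 300 bases on GRCm38.p6, 250 before and 50 from the gene start, were present for 8 of the 10 and not for Ier2 and Egr1. Searched on both strands, the CArG box, the site class of serum response factor, was in windows of Egr2 and in 1.63% of 32851 windows. Egr2 has several windows, some of which overlap and hold the same box. It thus had more chances of a match than a gene with a single window. A site more than 250 bases before the gene start lies outside the windows, so that a gene without a match may still have one. TGACGTCA, the full cAMP response element, is in 1.79% of all windows, and TGANTCA, an AP-1 motif, is in 7.81%; neither is in a window of the 8. The half-site TGACG, which lies within TGACGTCA and was added after the sequences had been read, occurs at least once in 20.8% of windows. It had 4 matches in the window of Nr4a1, a number reached by 0.231% of windows, and 1 each in those of Fosb and Junb. The window of Fos and some of Egr2 had 2, and 5.01% of all windows had at least 2. The half-site was chosen with these sequences already seen, so that such shares are no support for a role of it. A match is a string of letters and no measure of binding.

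Stretches around the matches are shown for Nr4a1 and Fos, the tested genes with the most TGACG matches, and for the CArG boxes of Egr2. All are plus strand on GRCm38.p6, outside annotated exons and read 5′ to 3′, with the match and 10 bases on each side. Capitals mark the match, which reads CGTCA where TGACG lies on the other strand. Those of Nr4a1 and Egr2 lie within introns of longer transcripts of these genes, and those of Fos lie before the gene.
Nr4a1 at chr15:101266603-101266627: gcgctccctgCGTCAatggaacccc
Nr4a1 at chr15:101266623-101266647: accccgcgtgCGTCAcgcgcgcaga
Nr4a1 at chr15:101266767-101266791: gggccgtgtgCGTCAgtggcgcccc
Nr4a1 at chr15:101266796-101266820: cctctccatgCGTCAcggagcgctt
Fos at chr12:85473751-85473775: ggcgtagagtTGACGacagagcgcc
Fos at chr12:85473814-85473838: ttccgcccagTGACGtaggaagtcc
Egr2 at chr10:67537484-67537513: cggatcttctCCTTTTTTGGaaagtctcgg
Egr2 at chr10:67537787-67537816: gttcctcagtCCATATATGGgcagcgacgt
The gene with 4 matches, Nr4a1, had 48.0 to 62.3 CPM in the 8 libraries, and Egr2, with the CArG boxes, had 2 counts in all.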

How the data were processed

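Total RNA with a human DLD-1 RNA spike-in was depleted of ribosomal RNA and made into stranded libraries. The authors' notes name FastQC 0.11.9, Trim Galore 0.6.6, STAR 2.7.5c and DESeq2 1.26.0, with mm10 and hg19 as builds. The deposited values are raw counts per gene symbol, 1 table per library; the counting program, annotation and strand setting are not given in the sources used here. From these counts CPM, TMM factors and tests were computed with edgeR 4.0.16 in R 4.3.3: filterByExpr on 4 groups, 1 term per group, glmQLFit, glmQLFTest and Benjamini-Hochberg adjustment over 16371 genes, with a threshold of 0.05. For the pooled comparison the terms were line and treatment. No spike-in scaling was applied, so that a change in total RNA per cell would not show. Replicate differences used log2 CPM with a prior count of 2. Exonic lengths came from GENCODE M21. The edgeR fit was tested on simulated counts.

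The 10 genes and the 12 lists were chosen with earlier results of these data known. Named genes were all 10; from each other list any gene called in a comparison, otherwise up to 3 of those with the widest change over both lines and a mean of at least 1 CPM; the 5 genes most like the mean of the tested genes; and Dhx35, Gpatch1 and the 2 genes with the highest counts. Alternatives were DESeq2 1.42.0, its size factors, other filters, a replicate block, the 2 genes with the highest counts removed, fewer libraries and each library left out. Splicing was not analysed.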

Additional observations from a re-analysis of the deposited data

How the results depend on the processing

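The 5 comparisons were refitted with DESeq2, its size factors, other filters, a replicate block, the pair of genes with the highest counts removed and each library left out, and 3 of them also with only the 4 libraries compared. Of 579 fold changes of the 8 genes refitted in this way, 540 kept direction and side of the threshold, 34 changed direction and 5 came under an adjusted p of 0.05. No setting shifted the median of all genes by more than 0.0121 on the log2 scale. Where a group was left with 1 library, that library was assumed to vary like the other groups. What lies behind a change was not tested, unless a sentence gives it.

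With the replicate block, 0 of the 8 genes were called in any comparison, and 2 of all genes were called for the difference between responses. The labels do not say whether replicate numbers pair across groups, and correlations of replicate differences between groups ran from 0.0372 to 0.230. DESeq2 called 1 gene of all in the DHX35-dTAG line, 47 between the lines, 9 for the difference of responses and 4 over both lines. With no filter on low counts the numbers were 345 in the DHX35-dTAG line, 21 in the GPATCH1-dTAG line, 986 between the lines, 140 for the difference and 80 over both lines, and 1 of the 8 genes, Ier2, was called between the lines. With only the 4 libraries compared they were 1, 127 and 2 in the first 3 comparisons. With at least 10 counts in every library, 4 genes were called between the lines and Klf6 was at -0.0059. Egr1 was then not tested, and the median of the remaining immediate early genes was 0.063 in the DHX35-dTAG line, 0.067 in the GPATCH1-dTAG line, 0.092 between the lines, -0.061 for the difference and 0.027 over both lines.

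With each library left out, genes called ranged from 0 to 4949 in the DHX35-dTAG line, 0 to 51 in the GPATCH1-dTAG line, 4 to 5887 between the lines, 0 to 3592 for the difference of responses and 0 to 8 over both lines. The counts of 4949, 5887 and 3592 came without DHX35-dTAG DMSO replicate 2. Of the 8 genes, 0 to 1 were called in the DHX35-dTAG line, 0 to 2 between the lines and 0 to 1 for the difference. The median of the 8 ranged from -0.0066 to 0.18 in the DHX35-dTAG line, -0.039 to 0.091 in the GPATCH1-dTAG line, 0.025 to 0.23 between the lines and -0.19 to 0.016 for the difference. Over both lines it ran from 0.017 to 0.11.

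Log2 fold changes that changed direction with a library left out ranged as follows. In the DHX35-dTAG line Jun ran from -0.37 to 0.39, Junb from -0.098 to 0.48, Ier2 from -0.73 to 0.11 and Klf6 from -0.069 to 0.20. In the GPATCH1-dTAG line Jun ran from -0.079 to 0.061, Junb from -0.24 to 0.069, Egr1 from -0.42 to 0.097 and Ier3 from -0.041 to 0.24. Between the lines Junb ran from -0.15 to 0.43 and Klf6 from -0.019 to 0.033. For the difference of responses Jun ran from -0.41 to 0.35, Ier2 from -0.045 to 0.80, Nr4a1 from -0.19 to 0.042 and Klf6 from -0.12 to 0.15. Over both lines Fos ran from -0.054 to 0.31, Jun from -0.13 to 0.13, Junb from -0.097 to 0.13, Ier2 from -0.26 to 0.087 and Ier3 from -0.089 to 0.039.

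Others kept direction but moved by more than 1.5-fold. In the DHX35-dTAG line Fos ran from 0.26 to 0.84, Ier3 from -0.18 to -0.063 and Nr4a1 from 0.070 to 0.30. In the GPATCH1-dTAG line Fos ran from -0.45 to -0.050 and Ier2 from 0.036 to 0.099. Between the lines Fos ran from 0.0096 to 0.57, Ier2 from -0.88 to -0.043 and Ier3 from -0.54 to -0.26. For the difference Fos ran from -1.11 to -0.51, Junb from -0.59 to -0.0055 and Ier3 from 0.078 to 0.36. Over both lines Egr1 ran from 0.12 to 0.48, Nr4a1 from 0.096 to 0.19 and Klf6 from 0.024 to 0.13.

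Genes past 1.5-fold between replicates fell to 1 of 8 in DHX35-dTAG DMSO without TMM, beside 21.0% of all genes, and to 1 without the pair of genes with the highest counts, beside 20.8%, where Junb lies at the border. Without TMM 2 of 8 were past that fold in GPATCH1-dTAG DMSO, beside 11.2% of all genes, whose median was shifted by that scaling to -0.31, replicate 2 minus replicate 1. At 2 to 6 counts Fosb, and at 0 to 1 count Egr2, were compared with no filter only, where the lowest standard errors were 0.61 and 2.18 on the log2 scale.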
